A study of Mus musculus with 10 samples.

Results

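The genes of cholesterol synthesis and handling were examined in alveolar type II (AT2) cells, the epithelial cells of the lung alveolus that make surfactant. The set was a written list of 28 gene symbols, from the regulators of the sterol response through the enzymes that build cholesterol to the genes that carry, store and export it, and its members were given by name, with no threshold on a measured value. All 28 were among the 16154 genes of the deposited table, and all 28 were among the 12946 genes that passed the filter on low values. The data were polyA RNA sequencing of sorted AT2 cells from 10 C57BL/6 mice aged 8 to 10 weeks. The 5 libraries of the HOILKO group (replicates 1 to 5) have the genotype label HOIL-1L -/-, and the design text gives the mice as CreSPC/HOIL-1L fl/fl, a floxed allele with Cre recombinase named for surfactant protein C, whose promoter is active in AT2 cells. The 5 libraries of the WT group (replicates 2 to 6) are labelled wild type, with no statement on whether those mice carried Cre or a floxed allele. Rbck1 encodes HOIL-1L, which belongs to LUBAC, a ubiquitin ligase complex for linear chains. By the mouse numbers in their titles the libraries form a first run (HOILKO 1, 2 and 3, WT 2 and 3) and a second run (HOILKO 4 and 5, WT 4, 5 and 6), which the labels do not call batches.

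Values are the authors' normalized counts divided by a constant, the mean column total of 7.14 M, and are given as normalized counts per M. Rbck1, the targeted gene, was at 59.3, 29.8, 36.4, 38.0 and 38.8 per M in HOILKO 1 to 5 and at 29.7, 56.7, 57.8, 56.1 and 56.6 per M in WT 2 to 6. The library labelled HOILKO 1 was therefore at the level of WT 3 to 6 and the library labelled WT 2 at that of HOILKO 2 to 5. The groups as labelled had a log2 difference of -0.34 (two-sided exact permutation test over all arrangements, p = 0.206, smallest possible 0.00794). Results are given with all 10 libraries as labelled, and the main ones again without the libraries labelled HOILKO 1 and WT 2. Xist was at 55.5, 89.1 and 39.0 per M in HOILKO 2, HOILKO 3 and the library labelled WT 2 and at 1.44 to 3.16 per M in the other 7 libraries. The mice of the second run were all male by this gene and those of the first run were of both sexes. The 12 AT2 markers summed to 224440 to 261317 per M in HOILKO libraries and 226182 to 269914 per M in WT libraries. The depth was roughly 7.4 to 9.98 M reads per library, estimated from the spacing of the lowest values, and 1 read was worth about 0.0984 to 0.132 per M.

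Cholesterol is made from acetyl-CoA through mevalonate and the isoprenoids to squalene, which is closed into a ring and trimmed step by step to cholesterol. The supply is set by SREBP2, a transcription factor held in the endoplasmic reticulum by Scap and the Insig proteins when sterols are plentiful and released to the nucleus when they are scarce, where it binds promoters of the synthesis genes together with partner factors such as NF-Y and Sp1. Oxysterols instead activate the liver X receptors, which induce the exporters Abca1 and Abcg1, and AT2 cells place cholesterol in surfactant together with phospholipid.

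Promoter windows, the 250 bases before the annotated start, were taken from RefSeq (GRCm38.p6) and were present for 23 of the 28 members. Shown are Hmgcs1, 3 enzymes that were lower in the second run of mice than in the first (Idi1, Cyp51 and Msmo1), and Abca1, which was higher in it. Hmgcs1 was the single member, among those with a window, that matched TCACNCCAC, a core of the sterol regulatory element. Sterol elements of other sequence were not searched. Each is written 5′ to 3′ on the strand of the gene, and capitals mark the NF-Y motif CCAAT, read on either strand, and in Hmgcs1 also the sterol element core TCACNCCAC. The windows are chr13:119690101-119690350 (+) for Hmgcs1, chr13:8885356-8885605 (+) for Idi1, chr5:4104698-4104947 (-) for Cyp51, chr8:64733579-64733828 (-) for Msmo1 and chr4:53159896-53160145 (-) for Abca1.
Hmgcs1: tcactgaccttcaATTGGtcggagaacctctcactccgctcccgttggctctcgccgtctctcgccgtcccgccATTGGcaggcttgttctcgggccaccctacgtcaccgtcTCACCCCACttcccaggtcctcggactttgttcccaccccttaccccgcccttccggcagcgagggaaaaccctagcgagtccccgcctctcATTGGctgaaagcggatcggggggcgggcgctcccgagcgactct
Idi1: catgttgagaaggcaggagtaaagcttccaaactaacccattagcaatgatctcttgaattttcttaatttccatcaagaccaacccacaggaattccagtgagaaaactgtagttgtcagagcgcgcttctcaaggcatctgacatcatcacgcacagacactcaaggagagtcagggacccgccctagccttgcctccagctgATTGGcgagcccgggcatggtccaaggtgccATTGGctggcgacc
Cyp51: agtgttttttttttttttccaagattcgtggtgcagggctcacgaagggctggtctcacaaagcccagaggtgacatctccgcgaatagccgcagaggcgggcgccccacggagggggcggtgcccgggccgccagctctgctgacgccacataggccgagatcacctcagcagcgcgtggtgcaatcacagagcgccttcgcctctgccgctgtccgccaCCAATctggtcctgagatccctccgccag
Msmo1: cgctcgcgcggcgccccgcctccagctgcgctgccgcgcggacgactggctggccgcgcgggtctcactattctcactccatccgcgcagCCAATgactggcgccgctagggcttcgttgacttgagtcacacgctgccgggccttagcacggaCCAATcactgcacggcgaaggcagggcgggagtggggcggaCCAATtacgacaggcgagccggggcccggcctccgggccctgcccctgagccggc
Abca1: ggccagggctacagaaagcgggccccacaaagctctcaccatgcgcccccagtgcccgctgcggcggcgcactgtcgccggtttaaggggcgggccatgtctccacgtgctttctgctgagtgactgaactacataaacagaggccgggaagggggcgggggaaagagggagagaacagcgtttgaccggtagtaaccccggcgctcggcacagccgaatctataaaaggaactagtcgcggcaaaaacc

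A gene with several windows was counted if any of them held the motif. CCAAT was found in 19 of the 23 members with a window (82.6%), and in 15 of the 16 such enzymes (93.8%). This was so for 40.3% of the 9754 genes tested that have a window. In Dhcr7, Insig2 and Pmvk not every window held it. The Sp1 motif GGGCGG was found in 19 of the 23 members (82.6%), against 64.2% of those genes. TCACNCCAC was found in 1 of 23 (4.35%), against 1.26%, and that match lies 129 bases before the start of Hmgcs1. CCAAT matches lie 233, 172 and 41 bases before the start in Hmgcs1, 41 and 10 in Idi1, 25 in Cyp51 and 156, 92 and 51 in Msmo1, while the Abca1 window holds none. None of the motifs contains another. These counts describe letters in a short window and do not show binding.

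Levels between genes were compared per kb of exon. Insig1 was the highest member, at a mean of 143 normalized counts per M per kb over the 10 libraries, followed by the isopentenyl diphosphate isomerase Idi1 at 90.5, the HMG-CoA synthase Hmgcs1 at 86.8, Srebf2 at 72.1, the cholesterol acyltransferase Soat1 at 67.2 and the farnesyl diphosphate synthase Fdps at 61.0. The ranges over libraries overlapped among Idi1, Hmgcs1 and Srebf2 and among Srebf2, Soat1 and Fdps. Idi1 and Hmgcs1, at no less than 72.6 and 73.4, lay above the highest value of Soat1, 72.3. The lowest members were the sterol reductase Tm7sf2 at 6.55, the geranylgeranyl diphosphate synthase Ggps1 at 3.55, Abca1 at 1.93 and Abcg1 at 0.437. The coefficient of variation over the 10 libraries was lowest for Soat1 (6.09%) and Srebf2 (6.45%) and highest for Abcg1 (81.4%).

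**Figure D1:**
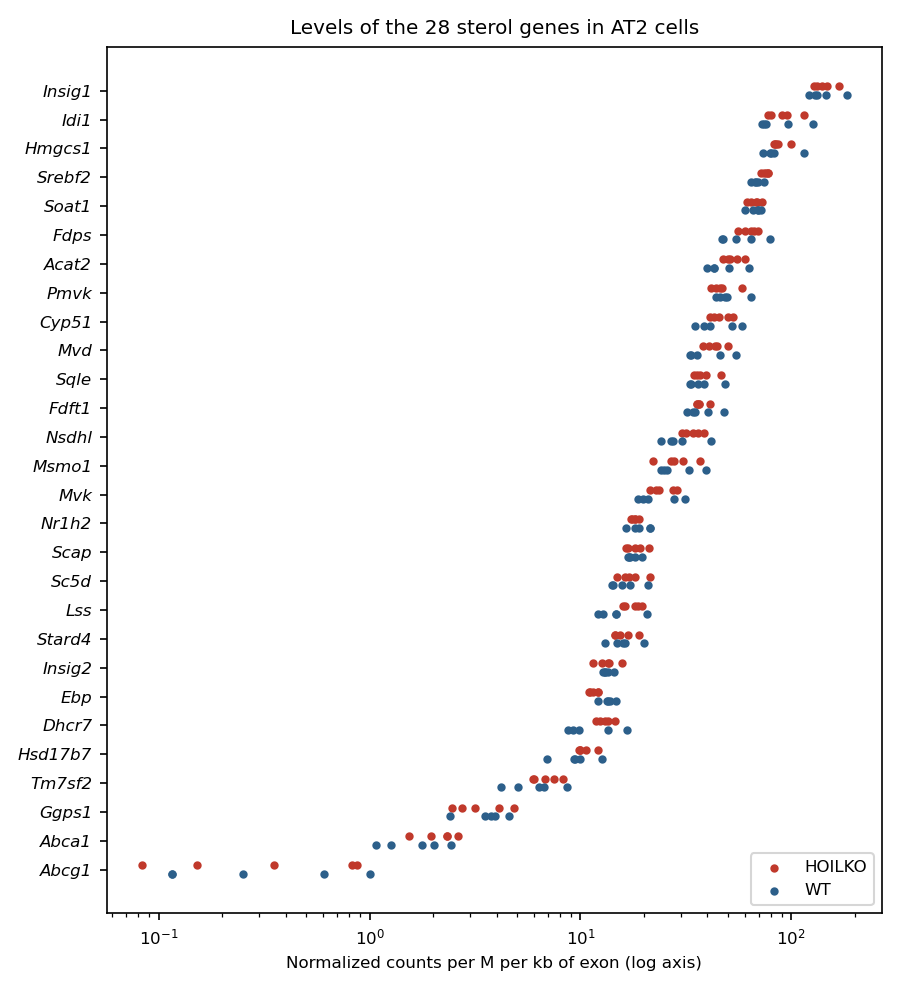
Level of each of the 28 genes in each library, in normalized counts per M per kb of exon on a log axis, with 5 HOILKO points above 5 WT points for every gene. The order runs from Insig1 at a mean of 143 to Abcg1 at 0.437, and the HOILKO and WT points overlap for every gene.

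Between HOILKO and WT cells no gene of the set passed the test with all 10 libraries. With limma on log2(value + 0.5) and Benjamini-Hochberg adjustment, 0 of 28 members passed at 0.05, beside 0 of 12946 genes (0%). At an unadjusted p under 0.05 there were 3 members, against 9.48% of all genes. The log2 fold change was above 0 for 21 members and below 0 for 7, with a median of 0.06, while 51.3% of all genes were above 0 with a median of 0.01. Of the 28 members, 0 had groups that did not overlap, where 0.958% of all genes did so with HOILKO higher and 0.633% with HOILKO lower.

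Inside the runs of mouse numbers, the enzymes stood on different sides of 0. In the second run, the log2 fold change of HOILKO over WT was above 0 for 15 of the 19 enzymes, with a median of 0.17, and for 51.8% of all genes. In the first run it was above 0 for 2 enzymes and below 0 for 17, with a median of -0.15, and above 0 for 50.3% of all genes. The 28 members passed in neither run with limma (0 of 28 in each), where 0.0386% of all genes passed in the second run and 0.00772% in the first. At an unadjusted p under 0.05 there were 7 members in the second run (10.1% of all genes), all with HOILKO higher, and 3 in the first run (8.92% of all genes). The groups did not overlap for 13 members with HOILKO higher and 2 with HOILKO lower in the second run, where 14.8% and 12.6% of all genes did so. In the first run these counts were 2 and 1, with 14% and 13% of all genes.

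The sign in the first run rested on WT 3, the library in which most enzymes were highest. Without it the log2 fold change in the first run was above 0 for 12 of 19 enzymes with a median of 0.05. The lone WT library of that run was then the one labelled WT 2, whose Rbck1 was at the level of most HOILKO libraries. Leaving out any other single library gave medians from -0.25, without the library labelled WT 2, to -0.09, without HOILKO 2 or HOILKO 3. Without both libraries labelled HOILKO 1 and WT 2 the median in the first run was -0.33, below 0 for 18 of 19 enzymes, where 48.7% of all genes were above 0. In that fit 1 of 28 members passed in the first run, Abca1, where 0.541% of all genes passed. At an unadjusted p under 0.05 there were 15, 14 of them with HOILKO lower, against 8.02% of all genes. These values set HOILKO 2 and 3 against WT 3 alone, which is assumed to vary like the other groups. HOILKO 2 and 3 were high in Xist and WT 3 was low, so genotype and sex cannot be told apart in these values. The fold changes of the second run do not involve those libraries, and in the same fit 0 members passed there and 7 had an unadjusted p under 0.05, where 0.317% and 11% of all genes did so.

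The difference between those fold changes, second run minus first, was tested as a contrast of its own. It was above 0 for 23 of 28 members and for 18 of 19 enzymes, against 50.8% of all genes, with a median of 0.29 over the enzymes and 0.0049 over all genes. With limma 0 of 28 members passed, where 0.0154% of all genes passed, and no member had an adjusted p below 0.632. Of the members 6 had an unadjusted p under 0.05, all above 0, against 2.7% of all genes above 0. Without both libraries labelled HOILKO 1 and WT 2 the difference was again above 0 for 18 of 19 enzymes (52.5% of all genes), with a median of 0.54 over the enzymes. In that fit 0 of 28 members passed, where 0.185% of all genes passed, and the smallest adjusted p was 0.105 (Dhcr7). Of the members 19 had an unadjusted p under 0.05, 18 of them above 0, against 5.16% of all genes. Without WT 3 it was above 0 for 16 of 19 enzymes with a median of 0.10. Leaving out other single libraries gave medians of 0.23 to 0.45. The p-values measure the spread between these mice only, with 2 or 3 libraries in a cell of the design when all are used. Without the library labelled WT 2, or without WT 3, a lone WT library is left in the first run. Without WT 3 that library is the one labelled WT 2, whose Rbck1 was at the level of most HOILKO libraries. The lone library is assumed to vary like the other groups.

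Markers of club cells, secretory cells of the airway, turned between the runs in the direction opposite to most enzymes. The 3 club markers (Scgb1a1, Scgb3a2 and Cyp2f2) summed to 4800 to 5340 per M in HOILKO and 5575 to 9039 per M in WT libraries of the second run, and to 6959 to 8857 per M in HOILKO and 4549 to 4891 per M in WT libraries of the first. These sums did not overlap between the groups in either run. The median log2 fold change of the 3 markers was -0.57 in the second run and 0.65 in the first. The median of the difference was -1.31. All 3 were below 0 at an unadjusted p under 0.05, against 5.92% of all genes in either direction, and 0 passed (smallest limma adjusted p = 0.132). The 4 ciliated cell markers summed to 243 to 246 per M in HOILKO and 289.7 to 302 per M in WT libraries of the second run, and to 174 to 227 per M in HOILKO and 173 to 196 per M in WT libraries of the first. The difference also had a median below 0 for AT1 (-0.33, 5 of 7 markers below 0), ciliated (-0.36, 4 of 4), macrophage (-0.41, 4 of 6) and endothelium markers (-0.28, 1 of 2). It was above 0 for AT2 (0.08, 10 of 12 markers above 0) and fibroblast markers (0.17, 2 of 4), where 50.8% of all genes lay above 0. The part of any of these cells in the values of the enzymes was not tested.

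**Figure D2:**
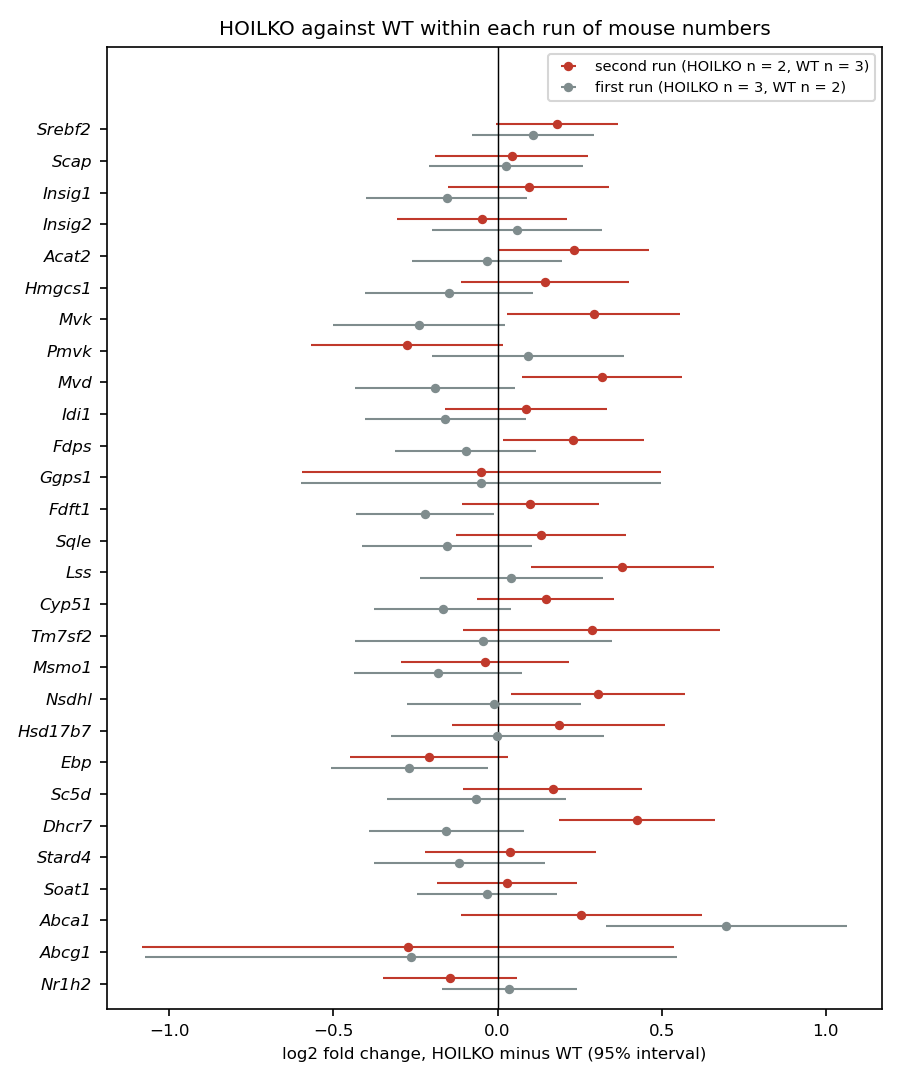
Log2 fold change of HOILKO over WT for each of the 28 genes within the second run (upper point of a pair) and within the first run (lower point), with 95% intervals from the shared fit. The points of the second run lie right of 0 for 15 of 19 enzymes and those of the first run left of 0 for 17 of 19, and most intervals include 0.

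The log2 fold changes of the 4 genes that control SREBP2 lay between 0.00 and 0.14 over all libraries. Srebf2, the gene of SREBP2 itself (chromosome 15, 82147181 to 82205379, GENCODE M21, mm10), was at 546, 518, 535, 556 and 558 per M in HOILKO 1 to 5 and at 497, 490.1, 462, 481 and 535 per M in WT 2 to 6. All 5 HOILKO libraries lay above 4 of the 5 WT libraries, and WT 6 lay within the HOILKO range. Its mean was 543 ± 16.8 per M in HOILKO libraries and 493 ± 26.6 per M in WT libraries (SD, n = 5 each). This was a log2 fold change of 0.14 (SE 0.06) that did not pass (limma adjusted p = 0.503). It was 0.18 in the second run and 0.11 in the first, and 0.14 without the libraries labelled HOILKO 1 and WT 2 (adjusted p = 0.400).

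Insig1, which retains SREBP2 in the endoplasmic reticulum and is itself induced by it, was at 523, 396, 456, 435 and 411 per M in HOILKO 1 to 5 and at 454, 567, 377, 401 and 409.7 per M in WT 2 to 6. The highest 2 values were those of WT 3 and the library labelled HOILKO 1, both of the first run, and the groups overlapped. Its log2 fold change was 0.02 (SE 0.10) over all libraries, 0.09 in the second run and -0.16 in the first (-0.42 without the libraries labelled HOILKO 1 and WT 2), and its sign over all libraries turned with several settings. Scap, the escort of SREBP2, averaged 137 ± 13.9 per M in HOILKO and 132 ± 8.92 per M in WT libraries, and Insig2, the second retention protein, 46.6 ± 5.51 and 46.3 ± 2.13 per M (HOILKO and WT, SD, n = 5 each).

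Among the 8 genes from acetyl-CoA to the isoprenoids, 6 had a log2 fold change above 0 over all libraries, 6 in the second run and 1 in the first. Mvk, the mevalonate kinase, was at 76.4, 63.4, 60.8, 73.7 and 57.4 per M in HOILKO 1 to 5 and at 74.0, 83.5, 53.0, 50.3 and 55.8 per M in WT 2 to 6. In the second run both HOILKO libraries lay above all 3 WT libraries, while in the first run the 2 WT libraries lay above HOILKO 2 and 3. Its log2 fold change was 0.29 in the second run and -0.24 in the first, a difference of 0.53 (SE 0.18, unadjusted p = 0.00782, limma adjusted p = 0.655).

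Mvd, the mevalonate diphosphate decarboxylase of the next steps, was at 93.3, 71.2, 81.2, 82.8 and 75.9 per M in HOILKO 1 to 5 and at 85.5, 101, 62.2, 61.8 and 66.6 per M in WT 2 to 6. The WT libraries of the second run were the lowest 3 of the 10 and WT 3 was the highest. The difference of the log2 fold changes between the runs was 0.51 (SE 0.16, adjusted p = 0.651). Fdps, which makes farnesyl diphosphate, was at 293, 271, 281, 255 and 235 per M in HOILKO 1 to 5 and at 272, 333, 229, 198 and 200.6 per M in WT 2 to 6. Its WT libraries of the second run were again the lowest 3, and the difference between the runs was 0.33 (SE 0.14, adjusted p = 0.812).

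Ggps1, which makes the geranylgeranyl diphosphate used to anchor small GTPases, was at 22.8, 11.6, 13.0, 19.4 and 14.96 per M in HOILKO 1 to 5 and at 11.3, 21.6, 16.6, 18.7 and 17.7 per M in WT 2 to 6. The library labelled HOILKO 1 and WT 3 were the highest and HOILKO 2 and 3 and the library labelled WT 2 the lowest 3. These lowest 3 were the libraries high in Xist. The log2 fold change of Ggps1 was -0.08 over all libraries. Without the libraries labelled HOILKO 1 and WT 2 it was -0.35 (SE 0.14, unadjusted p = 0.0274, limma adjusted p = 0.316), the smallest unadjusted p of the 28. That comparison holds HOILKO 2 and 3 and no WT library high in Xist, so genotype and sex cannot be fully told apart in it. In the second run, where every library was low in Xist, the log2 fold change was -0.05 (SE 0.26). Exons of Ggps1 share 257 bases with Arid4b on the opposite strand, and no source used here names the strand setting of the counting.

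The other enzymes of this stretch were Acat2, which joins acetyl-CoA units, with means of 135 ± 13.2 per M in HOILKO and 122 ± 23.7 per M in WT libraries, Hmgcs1 with 402 ± 31.0 and 396 ± 76.9 per M, and the phosphomevalonate kinase Pmvk with 81.2 ± 11.2 and 86.1 ± 13.8 per M (HOILKO and WT, SD, n = 5 each). Acat2 has a close relative, Acat3, at 28.4 to 38.5 per M over the 10 libraries, and reads may be divided between them. The difference between the runs without the libraries labelled HOILKO 1 and WT 2 was 0.72 for Mvk, 0.73 for Mvd, 0.50 for Fdps and 0.61 for Hmgcs1 (limma adjusted p = 0.298, 0.147, 0.513 and 0.142). Pmvk was the single enzyme whose difference between the runs lay below 0, at -0.37 (SE 0.20).

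Among the 11 genes from squalene to cholesterol, 8 had a log2 fold change above 0 over all libraries, 9 in the second run and 1 in the first, and the difference between the runs was above 0 for 11 of 11. Dhcr7, the 7-dehydrocholesterol reductase of the last step (chromosome 7, 143823145 to 143848410), was at 85.0, 79.0, 71.8, 76.4 and 69.0 per M in HOILKO 1 to 5 and at 78.9, 96.8, 53.9, 50.7 and 57.6 per M in WT 2 to 6. The WT libraries of the second run were the lowest 3 of the 10, and WT 3 was the highest. In the second run it averaged 72.7 ± 5.21 per M in HOILKO (n = 2) and 54.1 ± 3.41 per M in WT libraries (n = 3, SD), and in the first run 78.6 ± 6.62 per M in HOILKO (n = 3) and 87.9 ± 12.7 per M in WT libraries (n = 2, SD). The log2 fold change was 0.42 (SE 0.11, limma adjusted p = 0.265) in the second run and -0.16 (SE 0.11) in the first, and the difference of 0.58 (SE 0.16, adjusted p = 0.632) had the smallest unadjusted p of the set, 0.00203. That difference was 0.79 (SE 0.18) without the libraries labelled HOILKO 1 and WT 2, and the log2 fold change over the other 8 libraries was 0.24 (adjusted p = 0.501). When WT 3 was left out too it was 0.45 and passed (adjusted p = 0.0262), the single pass of a member in that comparison among its 16 alternatives. The WT libraries left were then all of the second run, in which Dhcr7 was lower, and the HOILKO libraries of both runs. Genotype, run and sex cannot be fully told apart in that fit.

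Lss, the lanosterol synthase that closes the ring, was at 212, 173, 202, 195 and 176 per M in HOILKO 1 to 5 and at 159.8, 224, 131, 138 and 159 per M in WT 2 to 6. All HOILKO libraries lay above 4 of the 5 WT libraries, and WT 3 lay above them all. HOILKO over WT had a log2 fold change of 0.26 (SE 0.11, unadjusted p = 0.0369, limma adjusted p = 0.503), with 0.38 in the second run and 0.04 in the first, where it was -0.26 without the libraries labelled HOILKO 1 and WT 2. Nsdhl, a sterol dehydrogenase encoded on chromosome X, was at 109.7, 90.8, 103, 97.8 and 86.7 per M in HOILKO 1 to 5 and at 86.8, 119, 78.1, 68.9 and 76.6 per M in WT 2 to 6. WT 3 was again the highest and the WT libraries of the second run the lowest 3, with a log2 fold change of 0.20 (SE 0.12, adjusted p = 0.591).

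Ebp, the sterol isomerase also encoded on chromosome X (8185329 to 8193512), was lower in HOILKO than in WT libraries in both runs without passing the test. It was at 28.1, 25.5, 28.1, 25.4 and 26.5 per M in HOILKO 1 to 5 and at 33.9, 31.9, 31.3, 31.0 and 27.99 per M in WT 2 to 6. WT 6 lay at the upper end of the HOILKO range and the other 4 WT libraries above it. The log2 fold change was -0.22 (SE 0.08), the smallest unadjusted p of the set in this comparison (0.0135, limma adjusted p = 0.398), with -0.21 in the second run, -0.27 in the first and -0.21 without the libraries labelled HOILKO 1 and WT 2 (adjusted p = 0.335). Ebp was not among the enzymes that were highest in WT 3.

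Fdft1, the squalene synthase, was at 174, 150.4, 155, 151 and 154 per M in HOILKO 1 to 5 and at 169, 203.8, 135, 144 and 148 per M in WT 2 to 6. The difference of its log2 fold changes between the runs was 0.32 (SE 0.14, limma adjusted p = 0.812). Exons of Fdft1 share 774 bases with Ctsb on the opposite strand, a gene at 507 to 719.6 per M. Cyp51, the lanosterol demethylase (chromosome 5, 4081145 to 4104746), was at 235, 199.6, 221, 189.9 and 182 per M in HOILKO 1 to 5 and at 232, 258, 153, 169.7 and 181 per M in WT 2 to 6. Every library of the second run lay below every library of the first, and the difference of the genotype fold changes between the runs was 0.31 (SE 0.14, adjusted p = 0.812). With the libraries labelled HOILKO 1 and WT 2 left out the difference was 0.51 for Fdft1 and 0.45 for Cyp51 (limma adjusted p = 0.407 and 0.715).

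The remaining 5 enzymes had means of 214 ± 26.6 per M in HOILKO and 211 ± 35.1 per M in WT libraries for the squalene epoxidase Sqle, 30.4 ± 4.31 and 27.3 ± 7.43 per M for the sterol reductase Tm7sf2, 177 ± 33.7 and 181 ± 40.01 per M for the methylsterol oxidase Msmo1, 53.6 ± 4.90 and 49.4 ± 10.4 per M for the ketoreductase Hsd17b7, and 85.6 ± 12.0 and 80.0 ± 13.7 per M for the desaturase Sc5d (HOILKO and WT, SD, n = 5 each). Their log2 fold changes over all libraries ran from -0.02 for Msmo1 to 0.19 for Tm7sf2. Exons of Tm7sf2 share 532 bases with Vps51 on the same strand, and those of Fdps 1124 with Gm43738. On the opposite strand, exons of Cyp51 share 166 bases with Akap9, those of Lss 381 with 4930483K19Rik and those of Scap 985 with 5830462I19Rik, so that these levels may hold some reads of a neighbour.

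**Figure D3:**
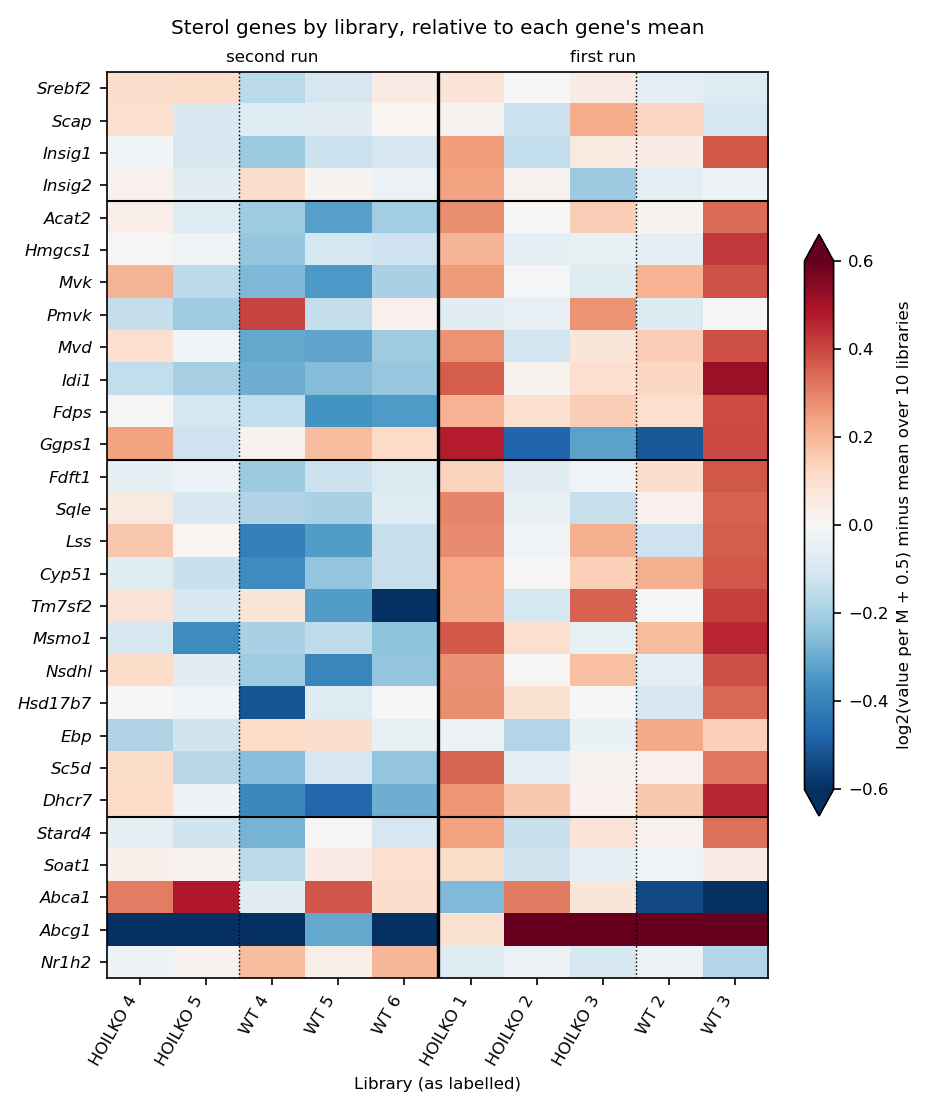
Log2(value per M + 0.5) of each of the 28 genes in each library minus that gene's mean over the 10 libraries, with libraries of the second run left and of the first run right and horizontal lines between the roles. WT 3 and the library labelled HOILKO 1 are high in most enzyme rows, and the WT libraries of the second run are low in most of them.

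The enzymes varied together from library to library, and the libraries that set the pattern could be named. In HOILKO 1 to 5, 18, 10, 14, 11 and 3 of the 19 enzymes lay above their own median over the 10 libraries. In WT 2 to 6 the counts were 12, 19, 3, 2 and 3. WT 3 was the highest of the 10 libraries for 15 of 19 enzymes, while WT 4 and WT 5 were each the lowest for 7. Relative to each gene's mean, the median enzyme stood at a log2 value of 0.38 in WT 3 and 0.27 in the library labelled HOILKO 1, and at -0.20 to -0.23 in WT 4, 5 and 6, where the median of all genes stood within 0.01 in those 4 libraries and at 0.02 in the library labelled HOILKO 1.

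In the first run, the library labelled HOILKO 1 and WT 3 held the highest 2 values for 16 of 19 enzymes (84.2%) and 19 of 28 members (67.9%), which was so for 14.2% of all genes. These were the libraries of the first run with Rbck1 at 59.3 and 56.7 per M, and also its only libraries with low Xist. The level of Rbck1 and the sex of the mouse cannot be told apart in that run. Without the libraries labelled HOILKO 1 and WT 2, limma called 0 of 28 members between HOILKO 2 to 5 and WT 3 to 6 (2 at an unadjusted p under 0.05, Ggps1 and Ebp, both lower), where 0.402% of all genes passed and 13.1% had an unadjusted p under 0.05. The median log2 fold change of the enzymes was 0.08 in that comparison and that of all genes 0.00065. Among its libraries HOILKO 2 and 3 alone were high in Xist, so genotype and sex cannot be fully told apart in it.

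The runs of mouse numbers themselves differed in 7 of the 28 genes. This comparison, the second run minus the first over the mean of the genotypes, was added after the values were seen, and the genes it names follow from it. Idi1, Fdps, Cyp51, Msmo1, Dhcr7 and Abcg1 were lower and Abca1 was higher in the second run, with limma at an adjusted p under 0.05, where 0.888% of all genes passed, 0.456% higher and 0.433% lower. At an unadjusted p under 0.05 there were 20 members, against 15.9% of all genes. The log2 difference was below 0 for 18 of 19 enzymes with a median of -0.29, where 49% of all genes were above 0 with a median of -0.0043. In 5 members every library of the second run lay below every library of the first, and in 1 member, Nr1h2, above, beside 1.4% and 1.45% of all genes.

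Idi1, which turns isopentenyl diphosphate into its isomer (chromosome 13, 8885501 to 8892451), was at 401, 316, 335, 281 and 272 per M in HOILKO 1 to 5 and at 339.8, 446, 255, 259.9 and 266 per M in WT 2 to 6. The 5 libraries of the second run were the lowest 5, at 267 ± 10.3 per M, beside 368 ± 54.5 per M in the first run (SD, n = 5 each), and Idi1 fell by 0.46 on the log2 scale (SE 0.08, limma adjusted p = 0.0144). Msmo1, which removes methyl groups from the sterol ring (chromosome 8, 64718139 to 64733792), was at 227, 188.2, 171, 165 and 136 per M in HOILKO 1 to 5 and at 200.7, 242, 154, 158 and 149 per M in WT 2 to 6. It averaged 152 ± 10.9 per M in the second run and 206 ± 28.8 per M in the first (SD, n = 5 each) and fell by 0.45 (SE 0.09, limma adjusted p = 0.0202). These runs did not overlap for Idi1 or Msmo1, nor for Cyp51 and Fdps.

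Cyp51 averaged 175 ± 14.2 per M in the second run and 229 ± 21.4 per M in the first (SD, n = 5 each) and fell by 0.39 on the log2 scale (SE 0.07, limma adjusted p = 0.0154). Fdps averaged 224 ± 24.2 and 290.0 ± 25.7 per M (second and first run, SD, n = 5 each) and fell by 0.36 (SE 0.07, adjusted p = 0.0225). Dhcr7 averaged 61.5 ± 10.8 and 82.3 ± 9.38 per M (second and first run, SD, n = 5 each) and fell by 0.40 (SE 0.08, adjusted p = 0.0231), with HOILKO 4 of the second run inside the range of the first.

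The number of members that passed between the runs depended on single libraries. Without WT 5 or without HOILKO 5, 1 member passed (Abcg1), without HOILKO 4 there were 2 (Msmo1 and Abcg1), and without WT 3 there were 3 (Idi1, Cyp51 and Abcg1). Without the libraries labelled HOILKO 1 and WT 2, 6 passed, the same without Abca1. With the sex read from Xist as a covariate 14 members passed, of which 13 were lower and Abca1 was higher in the second run. Every library of the second run was low in Xist, so the sex term came from the first run alone. There the libraries low in Xist were those high in Rbck1, so sex and the level of Rbck1 cannot be told apart in this count. Counts over all genes also moved under these settings and are given at the end. The 4 ciliated cell markers summed to 243 to 302 per M in the second run and 173 to 227 per M in the first, and the AT2 markers to 224440 to 269116 per M in the second run and 230497 to 269914 per M in the first. Their part in these differences was not tested, and the labels do not say what else separated the runs.

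**Figure D4:**
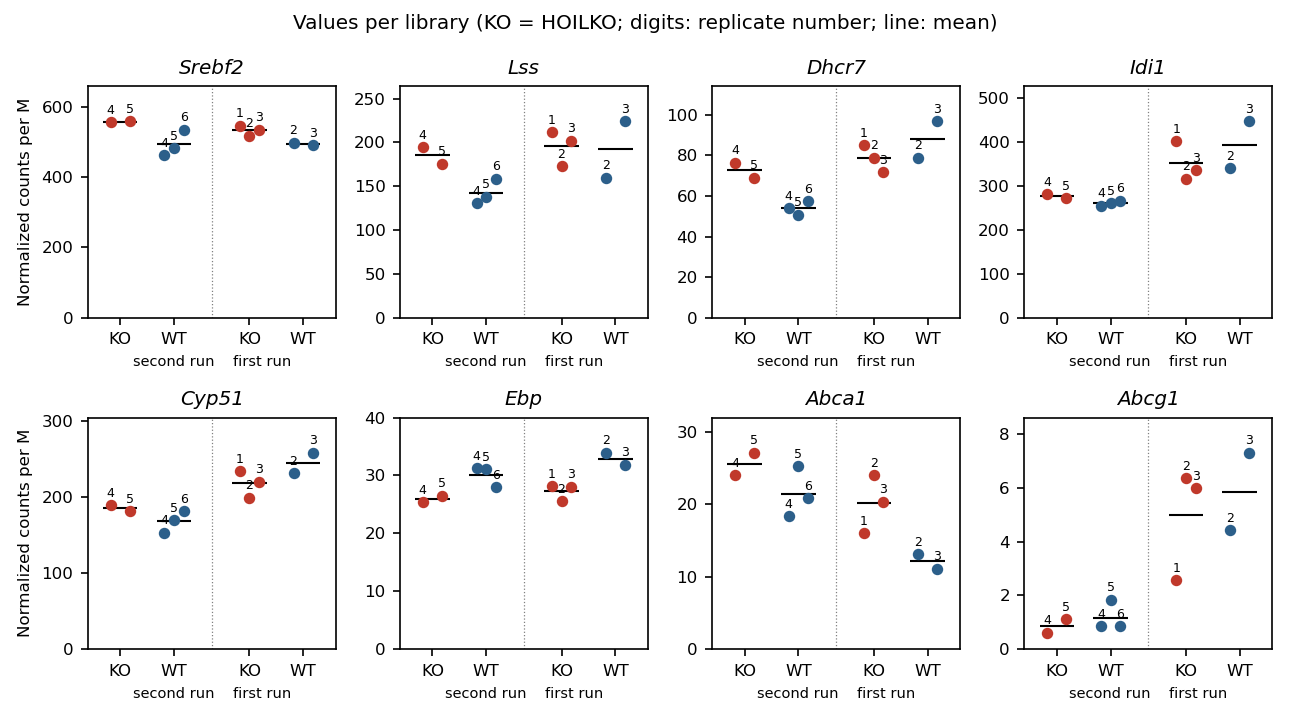
Normalized counts per M of 8 of the 28 genes in each library, with the second run left and the first run right of the dotted line, HOILKO (KO) left of WT in each, digits for replicate numbers and a line at the mean. Idi1, Cyp51 and Abcg1 are lower in every library of the second run than in any of the first, and Ebp is lower in HOILKO than in WT libraries in both runs.

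Of the 5 genes of transport, storage, export and sterol sensing, 0 passed between HOILKO and WT libraries, as did 0% of all genes. Soat1, which esterifies cholesterol for storage, averaged 656 ± 39.4 per M in HOILKO and 659 ± 45.3 per M in WT libraries, and the sterol carrier Stard4 89.6 ± 10.2 and 89.7 ± 14.3 per M (HOILKO and WT, SD, n = 5 each). The 95% interval of the log2 fold change was -0.15 to 0.14 for Soat1 and -0.21 to 0.22 for Stard4. Nr1h2, which encodes liver X receptor beta, averaged 60.6 ± 1.92 per M in HOILKO and 64.7 ± 7.03 per M in WT libraries.

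Abca1, which passes cholesterol to lipoprotein particles outside the cell (chromosome 4, 53030787 to 53159895), was at 15.99, 24.1, 20.4, 24.0 and 27.1 per M in HOILKO 1 to 5 and at 13.1, 11.1, 18.4, 25.2 and 20.8 per M in WT 2 to 6. WT 3, the highest library for most enzymes, was the lowest for Abca1. The log2 fold change of HOILKO over WT was 0.36 (SE 0.19, limma adjusted p = 0.571) over all libraries, 0.26 in the second run and 0.70 (SE 0.17, unadjusted p = 0.000938, adjusted p = 0.303) in the first. In the first run all 3 HOILKO libraries lay above both WT libraries. Without the libraries labelled HOILKO 1 and WT 2 it was 0.38 over the other 8 (adjusted p = 0.384). In the first run it was then 0.97, from 2 HOILKO libraries against WT 3 alone, which is assumed to vary like the other groups. Those HOILKO libraries were high in Xist and WT 3 was low, so genotype and sex cannot be told apart there. Between the runs Abca1 averaged 23.1 ± 3.49 per M in the second and 16.9 ± 5.30 per M in the first (SD, n = 5 each). It rose by 0.57 on the log2 scale (SE 0.12, limma adjusted p = 0.0357). Abca1 still passed there without HOILKO 1, HOILKO 2 or WT 4. It no longer passed with no filter on low values or, among others, without HOILKO 3, WT 5 or WT 6.

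Abcg1, which hands cholesterol to high-density lipoprotein and is abundant in alveolar macrophages (chromosome 17, 31057675 to 31117988), was at 2.57, 6.36, 6.00, 0.608 and 1.11 per M in HOILKO 1 to 5 and at 4.42, 7.31, 0.844, 1.83 and 0.843 per M in WT 2 to 6. Every library of the second run lay below every library of the first, at 1.05 ± 0.474 and 5.33 ± 1.86 per M (SD, n = 5 each), and Abcg1 fell by 1.94 on the log2(value + 0.5) scale (SE 0.27, limma adjusted p = 0.00245). By genotype the log2 fold change was 0.12 (SE 0.53), with -0.27 in the second run and -0.26 in the first. The 11 macrophage markers summed to 21.5 to 24.6 per M in the second run and 35.2 to 56.9 per M in the first. In HOILKO libraries the sum ran from 22.4 to 56.9 per M and in WT libraries from 21.5 to 56.5 per M.

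Of these 11 markers, 8 had a mean below 1 per M in the second run and 4 in the first. Chil3 was at 0.799 to 2.995 per M in the second run and 12.9 to 22.6 per M in the first, and the macrophage scavenger receptor Marco was listed at 0 in 4 of the 5 libraries of the second run. Csf1r did not follow, at 12.3 to 14.3 per M in the second run and 9.67 to 16.5 per M in the first. The part of macrophage RNA in the level of Abcg1 was not tested, and in such bulk samples fewer cells of a type and less RNA per cell cannot be told apart.

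**Figure D5:**
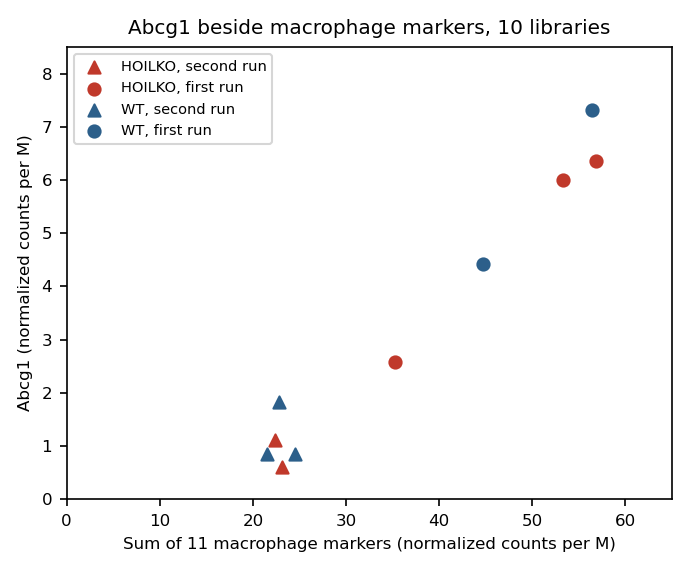
Abcg1 in each of the 10 libraries (vertical axis) against the summed level of 11 macrophage markers (horizontal axis), both in normalized counts per M, with triangles for the second run and circles for the first. The second run sits at 21.5 to 24.6 on the horizontal axis with Abcg1 at 0.608 to 1.83, and the first run at 35.2 to 56.9 with Abcg1 at 2.57 to 7.31.

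A further list of 42 sterol genes outside the set was examined, of which 41 were in the table. Of these 38 passed the filter. With limma 0 of 38 passed between HOILKO and WT over all libraries, within either run or in the difference between the runs, where 0%, 0.0386% (second run), 0.00772% (first run) and 0.0154% of all genes passed. At an unadjusted p under 0.05 there were 2, 3, 3 and 5 of the 38, against 9.48%, 10.1%, 8.92% and 5.92% of all genes. Erlin1, a membrane protein of the degradation machinery for sterol sensors, averaged 49.1 ± 3.03 per M in HOILKO and 41.3 ± 4.52 per M in WT libraries (SD, n = 5 each), with a log2 fold change of 0.25 (SE 0.08, adjusted p = 0.369). Vldlr, a receptor for lipoproteins, averaged 75.5 ± 8.15 and 65.5 ± 6.87 per M (HOILKO and WT, SD, n = 5 each), with 0.20. The sterol transporter Gramd1a had 0.29 and the geranylgeranyl transferase subunit Pggt1b 0.23.

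The smallest p of the difference between the runs in this list belonged to Mylip, the ligase that sends lipoprotein receptors to degradation and a target of liver X receptors. It averaged 5.87 per M in HOILKO and 7.33 per M in WT libraries of the second run and 5.14 and 3.29 per M (HOILKO and WT) in the first, a difference of -0.87 (SE 0.28, limma adjusted p = 0.651). The endocytic receptor Lrp1 had -0.67, the sterol carrier Stard3 0.36 and the acetoacetyl-CoA synthetase Aacs 0.46. Without the libraries labelled HOILKO 1 and WT 2 the difference for Aacs was 0.85 (SE 0.15). In the first run of that fit its log2 fold change was -0.59 (SE 0.12), with WT 3 as the lone WT library. HOILKO 2 and 3 were high in Xist and WT 3 was low, so genotype and sex cannot be told apart there. Between the runs of mice 1 of the 38 passed, where 0.888% of all genes did so, 0.433% with lower values in the second run. Nceh1, which releases cholesterol from its esters, averaged 88.3 ± 2.81 per M in the second run and 112 ± 11.4 per M in the first (SD, n = 5 each) and fell by 0.35 on the log2 scale (SE 0.07, limma adjusted p = 0.0200), chosen here for passing.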

How the data were processed

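RNA of sorted AT2 cells was measured in 10 libraries. Per the submitters' processing notes, bcl2fastq 2.17, edgeR 3.14.0 and the mouse build mm10 were used, with no role stated. No source used here names the aligner, the annotation, the strand setting or the normalization. The authors deposited 1 table of 16154 Ensembl IDs whose values are a normalized signal and not whole counts, with column totals of 6.94 to 7.43 M, so no count test was run. Symbols were found for 16026 IDs. Coordinates and exon lengths are from GENCODE M21.

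Every value was divided by 1 constant, the mean of the column totals. A gene was kept if 5 or more libraries had 1 per M or more. limma 3.58.1 in R 4.3.3 (lmFit, eBayes with a trend) was run on log2(value + 0.5), two-sided, HOILKO minus WT, with Benjamini-Hochberg adjustment over all genes kept and a threshold of 0.05. The pseudocount understates fold changes of low genes. The comparison over all libraries had no covariate. Within-run values, their difference and the run comparison came from a fit with a mean for each combination of genotype and run over all 10 libraries. The fit was tested on simulated data. Members and lists were chosen with earlier results of these data known. All 28 members are named. Values in every library are given for Srebf2, Insig1, the 6 members with the smallest p between the genotypes, the 6 for the difference between runs, the 4 without the libraries labelled HOILKO 1 and WT 2, and, added later, those that passed between runs. Of other sterol genes, up to 4 with the smallest p between the genotypes and up to 4 for the difference between runs are named, and any that passed. The alternatives changed the pseudocount (0.1 or 2), the filter (none, or 5 per M) and the scaling (TMM or median-ratio factors), took the replicate number as a block or run or sex as a covariate, fitted the runs alone, or left out libraries. Figures and tables used Python 3.11.15 with matplotlib 3.10.9, pandas 2.3.3 and numpy 2.4.6.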

Additional observations from a re-analysis of the deposited data

Results flagged for a closer look

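Each of the 28 genes was examined in the 5 HOILKO and the 5 WT libraries for a single library far from the rest. Of the 56 groups, 4 had such a library, where about 1 in 20 is the rate for independent, normally distributed values. The enzymes vary together, so the groups are not independent, and the share over all genes was not computed. The count is therefore not read as an excess. The measure is the gap of that library to its nearest neighbour as a share of the group's range, with a critical value of 0.71. Hmgcs1 was at 456 per M in the library labelled HOILKO 1, with the other HOILKO libraries at 381 to 398 per M, a share of 0.781. The same gene was at 531 per M in WT 3, with the other WT libraries at 337 to 381 per M, a share of 0.772. Fdft1 was at 174 per M in the library labelled HOILKO 1, with the others at 150.4 to 155 per M, a share of 0.795. The phosphomevalonate kinase Pmvk was at 110.0 per M in WT 4, with the other WT libraries at 75.1 to 84.4 per M, a share of 0.731, and WT 4 was the lowest of all 10 libraries for 7 of the other enzymes.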

How the results depend on the processing

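The count of members passing stayed at 0 under each of 19 alternatives for the overall comparison, 19 for the second run and 18 for the difference of genotype effects between the runs. In the first run it was 0 under 18 of 19 alternatives. The other, without both libraries labelled HOILKO 1 and WT 2, left WT 3 as the lone WT library, low in Xist beside HOILKO 2 and 3. In the 8-library comparison it was 0 to 1 with single libraries left out (Dhcr7 without WT 3). Without WT 3 the WT libraries left there were all of the second run and the HOILKO libraries of both. In the comparison of the second with the first run 7 members passed, 14 with sex as a covariate and 1 to 7 with single libraries left out. The sex term in the run comparison came from the first run alone, where sex and the level of Rbck1 cannot be told apart. Of 468 recomputed values of single genes, 435 kept direction and side of the threshold, 26 no longer passed, 1 newly passed and 6 turned sign. All 6 were the log2 fold change of Insig1 over all libraries, 0.02, which became -0.067 with the replicate block and -0.030 with run as a covariate and ran from -0.044 to 0.11 with single libraries left out, below 0 without HOILKO 1, WT 4, WT 5 or WT 6.

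Counts over all genes moved more. The overall comparison called 0 genes, 261 with the replicate block, 1 with run as a covariate and 0 to 4 with single libraries left out. The 8-library comparison called 52, 10 with no filter, 397 with the block, 27 with sex and 19 to 100 with single libraries left out. The difference between the runs called 2, 37 with no filter, 27 with sex, 24 without both libraries and 1 to 18 with single libraries left out. The first run called 1, 0 with the filter at 5 per M, 65 with no filter, 0 fitted alone, 2 with sex, 70 without both libraries and 0 to 14 with single libraries left out. The second run called 5, 3 with the filter at 5 per M, 2 with no filter, 3 with a pseudocount of 2, 41 fitted alone, 51 with sex, 41 without both libraries and 1 to 11 with single libraries left out. The run comparison called 115, 66 with sex, 53 without both libraries and 26 to 267 with single libraries left out. Of the members 7 passed in the run comparison, and 14 with sex. The causes were not tested. Whether the replicate numbers shared by HOILKO and WT pair the mice is not settled by these values. Deviations of libraries with the same number correlated at 0.31, 0.03, 0.10 and 0.08 for numbers 2 to 5. For number 2, which includes the library labelled WT 2, each library correlated best with the other. Among numbers 3 to 5 only WT 4 correlated best with the library of its own number. With the block 0 members passed. TMM and median-ratio factors moved the median of all genes by at most 0.01 on the log2 scale. Values below about 1 per M, as for Abcg1 in the second run, rest on few reads, and the small number of libraries per run limits what the tests within runs can call.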
